A study of Rattus norvegicus with 22 samples.

Results

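Liver RNA of 12 vehicle-treated rats was examined on its own, with no inhibitor-treated array used. The 12 arrays are all those of the series whose titles call them controls, 12 of 22 in all, and were chosen by label and not by any measured value. They ask which genes are strongly and steadily expressed in the vehicle-treated liver, which differ between animals given the same treatment, and which of the variable genes move together. The rats were females of the outbred Crl:CD(SD) stock that received vehicle once, intraperitoneally, at 10 mL/kg. Each array holds RNA of 1 animal, from a snap-frozen piece of the liver's median lobe. The vehicle held mannitol, hydroxypropylmethylcellulose and sodium dodecyl sulphate in sterile water and no test article, so the dose of the complex III inhibitor GSK932121A was 0 mg/kg. The age label reads 12 weeks, while the husbandry text gives a range of 10 to 14 weeks. Food and water were freely available under light and dark periods of 12 h each, and no sampling time is labelled for the vehicle group. Whether animals shared a cage, litter, dosing session or array run is likewise unlabelled.

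Values are log2 signals from Affymetrix arrays, summarised by robust multi-array averaging, in which 1 log2 unit is a 2-fold difference in signal. For each of 18166 genes with a single symbol, 1 probe set was used, the brightest where there were several. Array medians ran from 4.73 to 4.85, every pair of arrays correlated at 0.97 to 0.98 over all 36685 probe sets, and no arrays held identical values. Since probe sets differ in how brightly they light up, signals of different genes are ranked only as signals and are not compared as amounts. Without repeat hybridisations, the standard deviation (SD) over the 12 arrays holds both the difference between animals and the error of the array.

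The liver makes most proteins of blood plasma, clears amino nitrogen, stores and releases glucose, and metabolises steroids and drugs. Much of its metabolic gene expression follows the daily feeding and light cycle through a molecular clock: CLOCK or NPAS2 pairs with BMAL1 to drive E-box genes such as the PER and REV-ERB (Nr1d1) repressors and the transcription factor DBP, and REV-ERB in turn represses Bmal1. Sds encodes serine dehydratase, a periportal enzyme that turns serine into pyruvate and ammonia and is known to respond to fasting, dietary protein, glucagon and glucocorticoid.

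Vehicle replicates 1 and 4 stood apart from the other 10 arrays in clock genes and in Sds. Dbp read 9.63 and 10.07 in replicates 1 and 4 and between 6.24 and 6.95 elsewhere, and Bmal1 read 5.54 and 5.66 there against 7.71 to 8.13. Results that could rest on these animals are therefore given over all 12 arrays and again over the 10 without them.

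The strongest signals were those of mitochondrially encoded and secreted liver proteins. COX3, a subunit of cytochrome c oxidase encoded in mitochondrial DNA, ranked first at 13.52 ± 0.04 (SD, n = 12), with a lowest array of 13.44, a median of 13.53 and a highest of 13.60. Alb, which encodes albumin, followed at 13.41 ± 0.03 and ranged from 13.35 to 13.46. COX1, another mitochondrially encoded oxidase subunit, came next at 13.40 ± 0.05. Plasma proteins filled much of the remaining top 20: complement C3 (13.29), fetuin B (Fetub, 13.22), transthyretin (Ttr, 13.18), the vitamin D carrier Gc (13.15), the protease inhibitor Pzp (13.14), apolipoprotein B (Apob, 12.99), haemopexin (Hpx, 12.97), fibrinogen gamma (Fgg, 12.92), vitronectin (Vtn, 12.83) and C-reactive protein (Crp, 12.78). The enzymes among them were microsomal glutathione transferase Mgst1 (12.99), catalase (Cat, 12.93), the tyrosine-degrading dioxygenase Hpd (12.92), the steroid hydroxylase Cyp2c12 (12.92) and cysteine dioxygenase (Cdo1, 12.76). The ribosomal protein gene Rpl41 and Rpph1, the RNA of ribonuclease P, completed the 20 at 12.80 and 12.79.

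The labelled tissue and sex were borne out by marker genes. The 8 hepatocyte markers measured besides Sds averaged 11.00 to 11.27 per array. Cyp2c12, which is expressed in female rat liver, read between 12.74 and 12.98, whereas the male-expressed Cyp2c11 and Cyp3a2 averaged 4.08 and 2.32, below every array's median. Resident cells of the liver were also visible, with macrophage markers averaging 7.44 to 8.08 and endothelial markers 8.40 to 8.69. Markers of skeletal muscle, adipocytes, mesothelium, neutrophils and bile duct cells averaged between 4.04 and 5.33 on every array. In whole tissue, fewer cells of a type and less RNA per cell cannot be told apart.

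Most genes differed little between these animals. Among the 7069 genes with a mean log2 signal of 6 or more, the median SD was 0.18, and the median gap between the lowest and highest animal corresponded to a 1.51-fold range. An SD of 0.5 or more was found in 186 genes, or 2.63% of those 7069. The spread was smaller among the brightest genes, with a median SD of 0.12 for the 82 genes at 12 to 14 log2 units against 0.18 for the 4831 genes at 6 to 8.

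**Figure D1:**
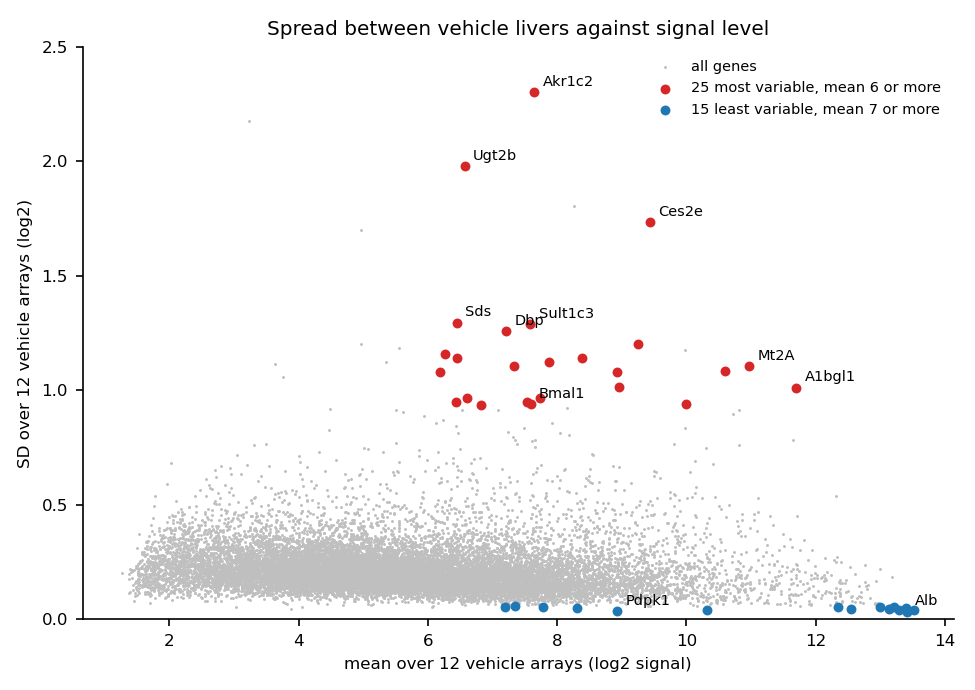
Standard deviation over 12 vehicle arrays (vertical, log2) against mean log2 signal (horizontal) for 18166 genes, 1 point per gene, with the 25 most variable genes of mean 6 or more in red and the 15 least variable of mean 7 or more in blue. Akr1c2 stands highest at an SD of 2.30, while Alb lies lowest among the genes of mean 7 or more, at 0.03.

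Albumin was the steadiest gene of mean 7 or more, its highest animal being 1.08-fold above its lowest. Its mean of 13.41 lay near the highest value of any probe set, 13.77. Whether the array narrows differences between animals at such signals was not tested. Secreted proteins made up much of the 15 steadiest genes, with C3, the alpha-1-microglobulin precursor Ambp, Pzp, Apob, Fetub and the apolipoprotein Apoe all at an SD between 0.04 and 0.05. COX3, COX1 and Cyc1, the cytochrome c1 subunit of complex III, were equally steady, and Cyc1 read between 10.27 and 10.40. The other members were Pdpk1, a kinase of insulin signalling (8.93 ± 0.04, SD, n = 12), the dynein heavy chain Dync1h1, the diacylglycerol kinase Dgkq, Gatd1 and Ankhd1.

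The spread also differed between groups of genes. The 19 plasma protein genes had a median SD of 0.08, the 17 respiratory chain genes one of 0.14 and the 13 reference genes of expression assays one of 0.15, while the 13 cytosolic ribosomal protein genes had one of 0.19, and no gene of these lists reached 0.5. These lists hold chosen members only and were not matched for signal level. Among cytosolic ribosomal protein genes off the list, Rpl21 had an SD of 0.53 and Rpl36 ran from 8.42 to 10.59. Actb, a common reference gene, ran from 10.55 to 10.90. In contrast, 6 of 13 clock genes, 7 of 15 glucocorticoid-responsive genes and 5 of 11 immediate early genes with a mean of 6 or more had an SD of at least 0.5, with median SDs of 0.46, 0.48 and 0.49. Part of the clock spread rested on replicates 1 and 4. Without them the SD fell from 1.26 to 0.26 for Dbp, from 0.94 to 0.14 for Bmal1 and from 1.12 to 0.74 for Nr1d1. The list counts and medians were computed over all 12 arrays only. Among metabolic lists, amino acid breakdown and the urea cycle held 3 of 31 such genes, cholesterol synthesis and uptake 3 of 19, bile acid synthesis and transport 4 of 17, drug metabolism 5 of 21, sulfotransferases and steroid metabolism 4 of 10, and fatty acid oxidation and ketogenesis 0 of 18. Over all 7069 genes of mean 6 or more the count was 186 (2.63%). A list of 18 genes is too small to set a count of 0 apart from that share.

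The 3 largest SDs among genes of mean 6 or more belonged to Akr1c2, Ugt2b and Ces2e. Akr1c2, an aldo-keto reductase that acts on steroids, was low in replicates 4, 5 and 7 (4.05, 3.47 and 4.33) and read 7.93 to 9.51 in the other 9, a 65.8-fold range from end to end. Ces2e, a carboxylesterase, was low in a different set, with 7.07, 7.03, 7.53 and 6.98 in replicates 3, 8, 10 and 11 and 9.92 to 11.03 in the other 8. Ugt2b, a glucuronosyltransferase of steroid and drug conjugation, read 3.98 to 5.04 in replicates 2, 6, 8, 9 and 10 and 7.41 to 8.94 in the other 7. The animals at the low level thus differed from gene to gene, and the 3 low sets had in common only replicates 8 and 10, shared by Ces2e and Ugt2b. Related genes followed Akr1c2 in part. Akr1c1 had its 3 lowest values, 4.18, 4.81 and 5.17, in the same replicates 4, 5 and 7. Akr1c12 was lowest in replicates 4 and 5 (3.94 and 4.64) but read 6.91 in replicate 7, and Akr1c14, which reduces 3-ketosteroids, stayed between 11.41 and 12.05 on every array. Probe sets of such related genes can share signal, which was not tested here.

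The remaining 22 of the 25 most variable genes had SDs from 0.94 to 1.30. Just below the last of them, Dcn at an SD of 0.94, came Dlg5l14 at 0.92. Sds, Dbp, Nr1d1, Bmal1, Hsd17b2 and Upp2 were extreme in replicates 1 and 4 and are described below; without those 2 animals, these 6 left the 25 and the other 19 remained. Rgs16, a regulator of G protein signalling, ran from 7.56 in replicate 12 to 10.80 in replicate 6. Metallothioneins contributed Mt1, Mt2A and Mt1f. Sult1c3, a sulfotransferase, ran from 5.13 to 9.96. Secreted or immune products included Slpi, a leukocyte protease inhibitor (5.47 to 8.64), Serpina7, the thyroxine carrier (5.80 to 8.80), A1bgl1 (9.86 to 12.96), related to alpha-1B-glycoprotein, and the chemokine Ccl2. Casp12, a caspase of the endoplasmic reticulum, ran from 4.65 to 7.78, and Acsm2, a medium-chain acyl-CoA synthetase, from 5.36 to 7.85.

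Single animals accounted for some of this spread. Ccl2, which attracts monocytes, read 9.21 in replicate 3 and 5.48 to 6.80 in the other 11, and the chemokines Ccl7 (5.37), Ccl11 (5.86) and Cxcl1 (7.00) also had their highest value in replicate 3. Cpa1, a carboxypeptidase of the exocrine pancreas, peaked at 9.78 in replicate 10 and 9.03 in replicate 4. The mean of 8 pancreatic acinar markers, Cpa1 included, ran only from 4.86 to 5.12, and the means of its other 7 genes ran from 3.44 for the trypsinogen gene Prss1 to 6.11 for Cpb1, another pancreatic carboxypeptidase.

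**Figure D2:**
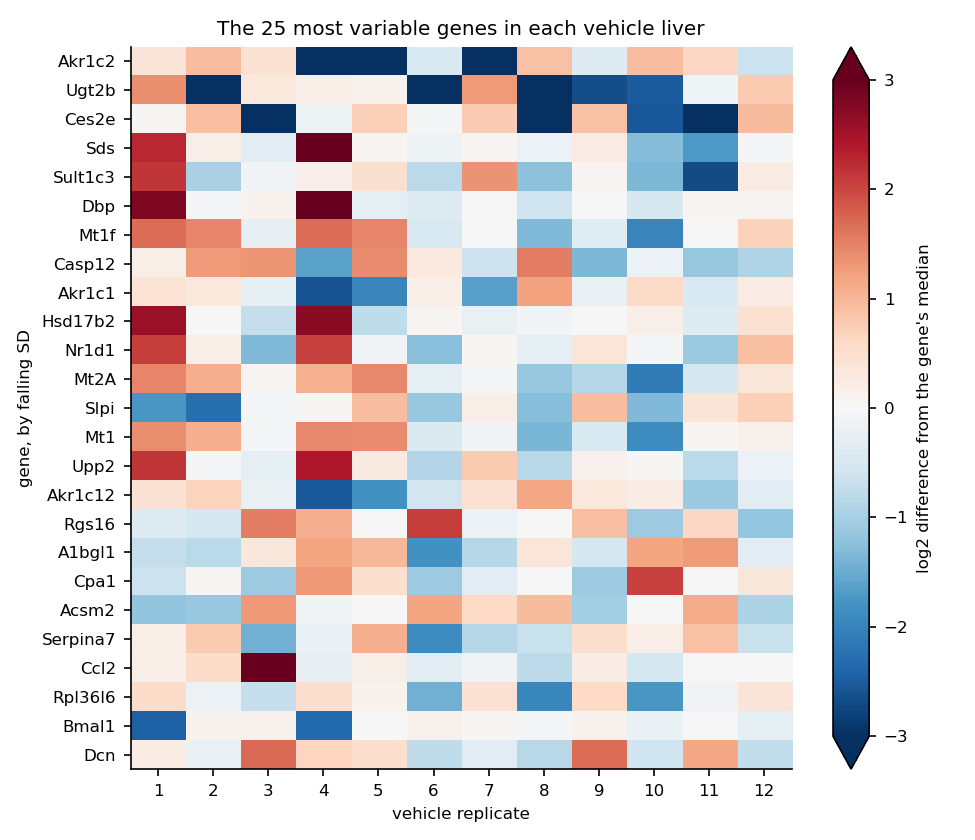
Log2 difference from each gene's median (colour, red above and blue below, ends of the scale at 3 log2 units) for the 25 most variable genes, from top to bottom by falling SD, in each of the 12 vehicle livers, columns. Sds, Dbp, Hsd17b2, Nr1d1 and Upp2 are highest and Bmal1 lowest in replicates 1 and 4, while the low animals for Akr1c2, Ugt2b and Ces2e are other sets.

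In 11 genes (0.0606% of 18166) the 12 values fell in 2 separated levels, defined as a gap of at least 1 log2 unit that spans at least 50% of the range with 2 or more arrays on each side. Dbp, Bmal1, Per3, Hsd17b2 and RGD1309362 split between replicates 1 and 4 and the rest, the last of these reading 7.99 or less in the pair and 9.98 or more elsewhere. Akr1c2 and Ces2e split as given above. Ly6al, a Ly6-family surface protein gene, read 5.71, 7.32 and 7.27 in replicates 4, 7 and 11 and at most 2.68 in the others, the level of unexpressed genes. Slc35c2, a transporter of the nucleotide sugar family, read 8.77 to 8.92 in replicates 7, 9 and 10 and at most 7.54 elsewhere. Trpm6, a magnesium channel, was high in replicates 4 and 8 (5.66 and 5.28), and Igkv2-112l2, an immunoglobulin kappa variable segment, in 7 and 11 (5.88 and 5.78). Just outside the rule, the gap of Ugt2b spanned 47.8% of its range and that of Sds 42.8%, while Igkv2-112l2, just inside, stood at 51.6%.

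Sds varied more than any other amino acid-degrading gene measured. It read 9.24 in replicate 4 and 8.54 in replicate 1, between 5.95 and 6.53 in 8 animals, and 4.97 and 4.56 in replicates 10 and 11, a median of 6.28 and a 25.7-fold range. Leaving out replicates 1 and 4 lowered its SD from 1.30 to 0.66. To find genes that moved with it, the log2 value of Sds was used as a regressor for each of the other 18165 genes in limma, with Benjamini-Hochberg adjustment over all of them. At an adjusted p below 0.05, 28 genes rose with Sds (0.154%) and 10 fell as it rose (0.0551%), or 38 in all (0.209%). These calls rest on replicates 1 and 4. None passed without both animals (1530 genes had an unadjusted p below 0.05, of 1724 with all 12 arrays), none without replicate 1 alone and 1 without replicate 4 alone. Without replicate 10, which has a low Sds, 15 passed. None passed either when Sds entered by its rank (2216 at an unadjusted p below 0.05) or when Dbp was added as a covariate (1314). Over the 10 arrays, 35 of the 38 kept the sign of their correlation with Sds, and 5 kept an absolute r of 0.8 or more. Since the 38 were selected on all 12 arrays, this count is a description.

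Clock genes were prominent among the 38: of 19 measured, Dbp, Nr1d1, Per3, Tef, Noct and Bhlhe41 rose with Sds and Bmal1 fell. Dbp and Tef are related activators that bind D-boxes, Per3 and Nr1d1 are repressors of the clock, Bhlhe41 represses at E-boxes, and Noct is a rhythmic phosphatase of nicotinamide cofactors. Per3 read 7.59 and 7.98 in replicates 1 and 4 against 5.35 to 6.20 in the rest, and Tef 6.32 and 6.74 against 4.82 to 5.40. Npas2, the partner of BMAL1, was lowest in the same pair, at 7.76 and 7.58 against 8.48 to 9.01, and did not pass (limma adjusted p = 0.128). Per1 (4.73 to 7.05, limma adjusted p = 0.0576) and Per2 (5.14 to 6.27), both clock repressors, did not pass; Per2 was highest in replicates 4 and 1, at 6.27 and 6.03, and next at 5.85.

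Within the other 10 animals, no relation to Sds was detected for Dbp, Per3, Bmal1 or Nr1d1. Over these animals the SD was only 0.26 for Dbp and 0.14 for Bmal1, which left little spread in which a relation could show. Because Dbp, Per3 and Bmal1 fell in 2 levels, no r over all 12 arrays is given for them; over the 10 arrays their r with Sds was 0.08 for Dbp, 0.11 for Per3 and 0.34 for Bmal1, with permutation p of 0.827, 0.712 and 0.340. Nr1d1 kept a wide range over these 10 animals, 6.42 to 8.64, where its r with Sds was 0.43 (permutation p = 0.195). The median r of the 19 clock genes with Sds was 0.69 over 12 arrays and 0.17 over 10, beside 0.03 and 0.02 for all genes.

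**Figure D3:**
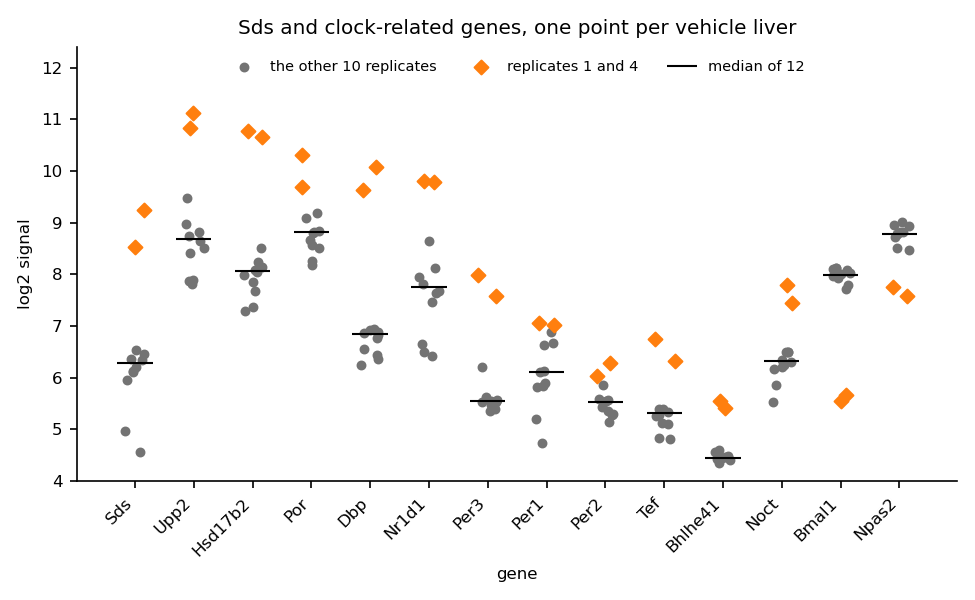
Log2 signal (vertical) of Sds, its co-varying genes Upp2, Hsd17b2 and Por, and 10 clock-related genes, 1 point per vehicle liver, with replicates 1 and 4 as orange diamonds and the median of 12 as a line. For Sds, Upp2, Hsd17b2, Por, Dbp, Nr1d1, Per3, Tef, Bhlhe41 and Noct both diamonds lie above the other 10 animals, and for Bmal1 and Npas2 below them.

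The letters by which clock factors are known to bind DNA were looked up in promoters of the genes concerned, because these genes moved together in replicates 1 and 4. The 250 bases upstream of the start, from RefSeq on build GRCr8, were searched on both strands for the E-box CACGTG, the D-box TTATGTAA and the ROR element TAGGTCA, which REV-ERB also binds. No matches overlapped in the promoters shown. These were found in 5.59%, 0.828% and 2.26% of 33469 promoters of the same length. Of 16 clock-list genes with a single promoter entry, 4 held an E-box (Tef, Bhlhe40, Bhlhe41 and Ciart), 1 a D-box (Per2) and 1 a ROR element (Bmal1). The promoters of 4 genes are shown, 5′ to 3′ along the gene with the match in capitals: Bmal1 (chr1:176766078-176766327, plus strand), the gene that moved opposite to the others; Tef (chr7:115206577-115206826, plus strand) and Bhlhe41 (chr4:180569356-180569605, minus strand), which were high in replicates 1 and 4; and Klf15 (chr4:124522765-124523014, plus strand), which had the largest r with Sds over the 12 arrays but not over the 10.
Bmal1: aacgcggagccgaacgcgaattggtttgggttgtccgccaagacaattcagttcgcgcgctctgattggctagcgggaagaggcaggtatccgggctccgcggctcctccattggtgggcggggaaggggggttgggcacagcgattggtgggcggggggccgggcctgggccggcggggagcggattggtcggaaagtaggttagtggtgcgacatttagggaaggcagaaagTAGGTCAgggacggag
Tef: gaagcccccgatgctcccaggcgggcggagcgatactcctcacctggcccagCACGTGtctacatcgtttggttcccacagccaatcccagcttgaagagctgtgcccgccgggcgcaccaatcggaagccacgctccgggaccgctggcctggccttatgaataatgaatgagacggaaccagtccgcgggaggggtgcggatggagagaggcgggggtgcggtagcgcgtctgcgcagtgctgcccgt
Bhlhe41: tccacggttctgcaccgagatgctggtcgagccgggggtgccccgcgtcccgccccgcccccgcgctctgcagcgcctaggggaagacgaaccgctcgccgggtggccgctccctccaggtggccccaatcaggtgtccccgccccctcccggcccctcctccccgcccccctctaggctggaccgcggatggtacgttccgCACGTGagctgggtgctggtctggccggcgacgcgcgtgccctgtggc
Klf15: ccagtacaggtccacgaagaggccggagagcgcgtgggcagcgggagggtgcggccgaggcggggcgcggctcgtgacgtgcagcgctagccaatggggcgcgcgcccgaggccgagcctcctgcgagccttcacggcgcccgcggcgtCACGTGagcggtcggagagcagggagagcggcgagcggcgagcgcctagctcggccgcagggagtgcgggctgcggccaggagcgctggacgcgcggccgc
The Bmal1 match lies 16 to 10 bases before the start, and the E-boxes lie 198 to 193 (Tef), 48 to 43 (Bhlhe41) and 101 to 96 (Klf15) bases before it. A match describes the letters only, and binding was not measured.

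Several regulators and enzymes outside the clock kept a relation to Sds within the 10 animals, though none passed limma there. The genes named here come from the 38 that passed over all 12 arrays, these 10 included, so a kept r is a description. Within the 10, Sds was low only in replicates 10 and 11 (4.97 and 4.56) and otherwise read 5.95 to 6.53. An r over the 10 therefore depends largely on replicates 10 and 11. Klf15, a glucocorticoid-induced activator of amino acid breakdown and gluconeogenesis, read 8.08 and 8.42 in replicates 1 and 4 and 6.77 to 7.43 in the rest. Its r with Sds was 0.95 over 12 arrays (permutation p = 7e-05, adjusted 0.00196 over 644 gene pairs; Spearman rho 0.80, p = 0.00231, adjusted 0.0343; limma adjusted p = 0.00355) and 0.72 over 10 (permutation p = 0.0163, adjusted 0.133). Replicate 11, the lowest in Sds, was also the lowest in Klf15 at 6.77, and replicate 10 read 7.03.

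Slc2a2, the GLUT2 glucose transporter of hepatocytes, ran from 9.65 to 10.96 with its 2 lowest values, 9.65 and 9.71, in replicates 10 and 11. Its r with Sds was 0.92 (permutation p = 0.00012, adjusted 0.00258; rho 0.80, p = 0.00221, adjusted 0.0343; limma adjusted p = 0.00971), and 0.88 without replicates 1 and 4 (permutation p = 0.00446, adjusted 0.0638). Klf13, a Krüppel-like factor, ran from 6.05 to 7.66 and was likewise lowest in replicates 11 and 10. It gave r = 0.84 over 12 arrays (permutation p = 0.00258, adjusted 0.0223; rho 0.71, p = 0.013, adjusted 0.0846; limma adjusted p = 0.0409) and 0.94 over 10 (permutation p = 0.00347, adjusted 0.0545). Over those 10 its rho was 0.49, so that the high r rests largely on the low values in replicates 10 and 11.

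Some genes of lipid synthesis also rose with Sds. Thrsp, a lipogenic regulator, ran from 10.55 in replicate 11 to 12.23 in replicate 4. Its r with Sds was 0.89 (permutation p = 0.00023, adjusted 0.004; rho 0.69, p = 0.017, adjusted 0.0953; limma adjusted p = 0.0158) and 0.82 over 10 arrays (permutation p = 0.00284, adjusted 0.0469). Of the 19 genes measured for fatty acid and triglyceride synthesis, Thrsp and the phosphatidate phosphatase Lpin1 (7.62 to 9.17, limma adjusted p = 0.0176) passed, and the list's median r was 0.47 over 12 arrays and 0.39 over 10. Of 8 genes of glucose uptake, glycolysis and fructose use, Slc2a2 and Pfkfb1, the bifunctional enzyme that sets fructose 2,6-bisphosphate (5.84 to 8.43, limma adjusted p = 0.0381), passed, with a list median r of 0.64 and 0.33.

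Of the 32 other genes of amino acid breakdown and the urea cycle, 1 passed: Got1, the cytosolic aspartate aminotransferase, which ran from 8.61 in replicate 10 to 10.44 in replicate 4 (r = 0.88, permutation p = 9e-05, adjusted 0.00223; rho 0.74, p = 0.0074, adjusted 0.0611; limma adjusted p = 0.0158; r = 0.67 over 10 arrays, permutation p = 0.0356, adjusted 0.205). The list's median r was 0.24 over 12 arrays and 0.47 over 10. The urea cycle enzyme argininosuccinate lyase, Asl, ran from 9.00 to 10.10, and its limma adjusted p was 0.224. Tat, tyrosine aminotransferase and a classic glucocorticoid-induced gene, ranged from 11.04 to 12.34 and was highest in replicates 4 and 1, without passing. Pck1, the rate-limiting enzyme of gluconeogenesis, ran from 10.10 to 11.65 and did not pass (limma adjusted p = 0.464), nor did any other of 11 gluconeogenesis and glycogen genes. Among 16 glucocorticoid-responsive genes, Lpin1 and the repressor Klf9 (8.14 to 9.66) passed, and among 15 insulin and FoxO genes, Klf15.

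Genes that fell as Sds rose included a growth factor subunit, a lipid droplet protein and 1 chaperone. Inhba, which encodes the activin A subunit, was lowest in replicates 1 and 4 (6.52 and 6.62) and highest in 10 and 11 (7.99 and 7.87). Its r with Sds was -0.93 (permutation p = 0.00018, adjusted 0.0036; rho -0.81, p = 0.00187, adjusted 0.0327; limma adjusted p = 0.00679) and -0.91 over 10 arrays (permutation p = 0.00292, adjusted 0.047). As for the genes above, the r of Inhba over the 10 arrays depends largely on replicates 10 and 11. Plin2, which coats lipid droplets, ran from 8.61 in replicate 1 to 10.06 in replicate 10 and passed at a limma adjusted p of 0.0250, the only one of 22 genes of fatty acid oxidation and ketogenesis to do so.

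Hsp90ab1, a cytosolic chaperone, ran from 8.01 to 9.09 and passed at 0.0310, 1 of 12 cytosolic chaperone genes measured. The 17 genes of endoplasmic reticulum chaperones and the unfolded protein response had a median r with Sds of -0.40 over 12 arrays and -0.61 over 10, and none passed. The remaining genes that fell were the transglutaminase Tgm2, the mitochondrial unfoldase Clpx, Tor3a, Tmem252, Ifgga2l2 and RGD1309362. Those that rose, beside the genes above, included the uridine phosphorylase Upp2, the tyrosylprotein sulfotransferase Tpst1, the translation inhibitor Eif4ebp3, the tetrahydrobiopterin enzyme Gch1, cytochrome P450 reductase (Por), and the oestradiol- and testosterone-oxidising Hsd17b2.

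**Figure D4:**
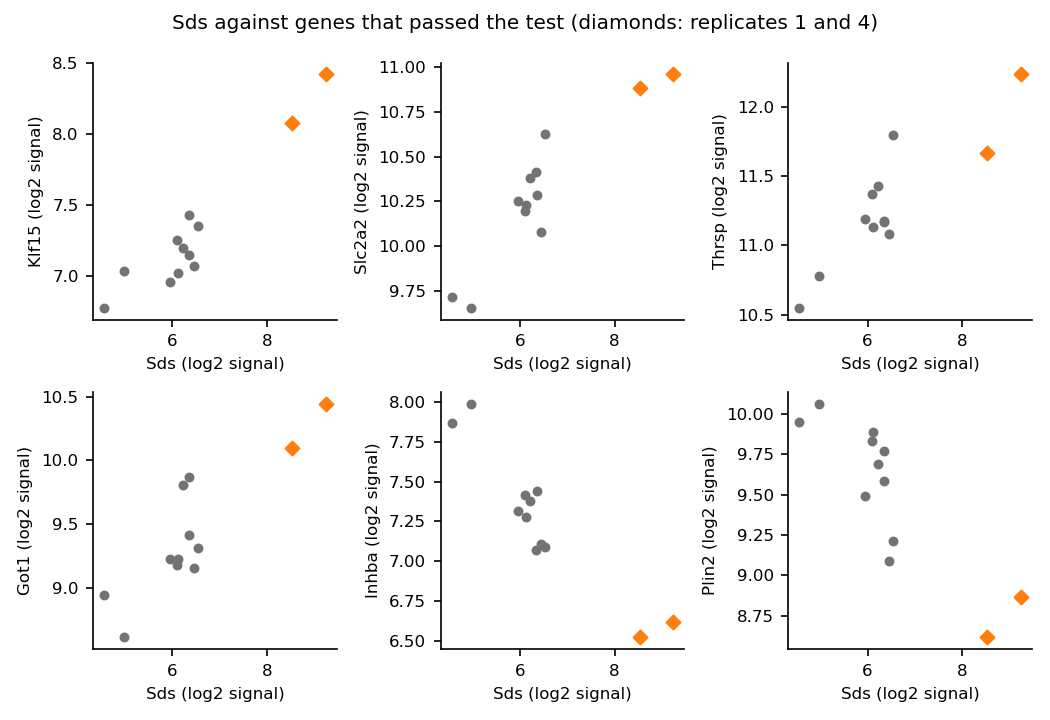
Log2 signal of 6 genes (vertical) against that of Sds (horizontal), 1 point per vehicle liver, with replicates 1 and 4 as orange diamonds. Klf15, Slc2a2, Thrsp and Got1 rise and Inhba and Plin2 fall with Sds, and the diamonds hold the highest Sds values in every panel.

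Sds was also set against 16 measures of each array, and 5 further metabolic genes likewise, 96 relations in all. None passed adjustment. For Sds, r was -0.19 with the array median and 0.19 with the mean correlation to the other arrays (permutation p = 0.561 and 0.564), with rho of -0.18 and 0.18 (permutation p = 0.572 and 0.575). With the mean of 5 erythroid markers, which ran from 5.21 to 5.71, it was 0.62 (permutation p = 0.0269, adjusted 0.528; rho 0.64, p = 0.0299, adjusted 0.344), and with the neutrophil and monocyte mean, which ran from 4.04 to 4.32, -0.58 (permutation p = 0.046, adjusted 0.528; rho -0.33, p = 0.299, adjusted 0.761). With Rpl36, described below, r was 0.45 (permutation p = 0.129, adjusted 0.729; rho 0.66, p = 0.0217, adjusted 0.344). Their part in the Sds results was not tested.

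Metallothioneins are small cysteine-rich proteins that bind zinc and copper and are induced by metals through the factor MTF1 and by glucocorticoid. Mt1 and Mt2A lie close together on chromosome 19, and their promoters are shown because the genes moved together. The 250 bases upstream of each start (RefSeq, GRCr8, minus strand; Mt1 at chr19:10832976-10833225, Mt2A at chr19:10838709-10838958) are written 5′ to 3′ along the gene, with matches on either strand to the metal response element letters TGCACNC or TGCGCNC in capitals.
Mt1: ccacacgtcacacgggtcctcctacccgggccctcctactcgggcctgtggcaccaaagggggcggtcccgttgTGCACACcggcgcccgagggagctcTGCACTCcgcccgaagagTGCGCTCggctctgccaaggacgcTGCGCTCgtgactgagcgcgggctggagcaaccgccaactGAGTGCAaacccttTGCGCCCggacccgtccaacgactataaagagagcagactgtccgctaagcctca
Mt2A: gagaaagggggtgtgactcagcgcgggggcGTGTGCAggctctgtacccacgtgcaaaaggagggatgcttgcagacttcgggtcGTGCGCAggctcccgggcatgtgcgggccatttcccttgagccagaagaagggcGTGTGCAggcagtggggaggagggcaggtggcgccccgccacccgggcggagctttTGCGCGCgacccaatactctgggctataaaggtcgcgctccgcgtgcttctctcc
Mt1 held 6 matches and Mt2A 4, none overlapping, while 10.3% of 33469 promoters held any TGCACNC and 11.8% any TGCGCNC.

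Mt2A read 12.38, 12.38, 12.00 and 12.00 in replicates 1, 5, 2 and 4, 8.83 and 9.79 in replicates 10 and 8, and 10.06 to 11.29 in the other 6. Mt1 had its 4 highest values, 11.58 to 11.94, and its 2 lowest, 8.60 and 9.12, in the same animals. With Mt2A as the regressor, 3 genes passed limma (0.0165%): Mt1 and Mt1f rose, both at an adjusted p of 2.12e-06, and the microRNA gene Mir23a, named although such genes were left out of ranks, fell. The r of Mt2A with Mt1 was 0.97 over 12 arrays (permutation p = 1e-05, the smallest these permutations can give, adjusted 0.000537; rho 0.91, p = 0.00012, adjusted 0.00859) and also 0.97 without replicates 1 and 4 (permutation p = 6e-05, adjusted 0.00386). Without replicates 10 and 1, the 2 farthest from the Mt2A median, it was 0.95. Mt1 and Mt1f passed limma in every alternative fitted, the highest adjusted p being 0.00168 for each, and leaving out 1 array gave 2 to 5 genes in all (5 without replicate 5 or 7). A second, dimmer probe set for Mt2A gave an r of 0.98 with the first over the 12 arrays. The genes are close in sequence, so shared signal between their probe sets is possible and was not tested.

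Mir23a, whose mature product is a widely expressed small RNA, had signals between 2.55 and 4.28, in the range of unexpressed genes, and its adjusted p of 0.0486 rose to as much as 0.751 under other settings. The mean of 8 hepatocyte markers, itself within 11.00 to 11.27, correlated with Mt2A at 0.79 (permutation p = 0.00202, adjusted 0.194, and rho 0.71, p = 0.012, adjusted 0.344). Without replicates 1 and 4 this r was 0.90 (permutation p = 0.00088, unadjusted). Mt2A correlated at 0.65 with Rpl36 (permutation p = 0.0217, adjusted 0.528, and rho 0.44, p = 0.153, adjusted 0.735). With the first principal component its r was 0.72. Rpl36 and the component are described below. The part of these measures in the result was not tested.

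The 3 other metabolic genes used as regressors each had 1 companion. Each companion was selected by limma from 18165 genes on these same arrays. Its permutation p-values and its r over fewer arrays are therefore descriptions and no further support. The same holds for the genes that passed with Mt2A above and with Scd and Rpl36 below. Slc2a5, the GLUT5 fructose transporter, ran from 6.28 in replicate 2 to 9.00 in replicate 4, and Chka, choline kinase alpha, from 6.86 in replicate 4 to 8.68 in replicate 2, in nearly the reverse order. Their r was -0.97 (permutation p = 1e-05, adjusted 0.000537; rho -0.94, p = 3e-05, adjusted 0.00644; limma adjusted p = 0.000374) and -0.91 over the 10 arrays (permutation p = 0.00029, adjusted 0.00934), where limma no longer called it; the call was also lost without replicate 4 alone. Sult1c3 (5.13 to 9.96) co-varied with the class I histocompatibility gene RT1-CE5 (4.36 to 6.03), with r = 0.91 (permutation p = 8e-05, adjusted 0.00206; rho 0.90, p = 0.00018, adjusted 0.00874; limma adjusted p = 0.0319) and 0.87 without replicates 11 and 1. Cyp2b2, a phenobarbital-inducible cytochrome P450 that was lowest in replicates 1 and 4 (5.89 and 6.34 against 6.67 to 8.70), co-varied with the tubulin gene Tubb2a, which was also lowest there (5.09 and 5.92 against 6.47 to 7.65). For Cyp2b2 and Tubb2a r was 0.90 over 12 arrays (permutation p = 5e-05, adjusted 0.00169; rho 0.70, p = 0.0143, adjusted 0.0885; limma adjusted p = 0.0243) and 0.77 over 10 (permutation p = 0.0102, adjusted 0.109). With 1 call of 18165 each (0.00551%), the calls of Sult1c3 and Cyp2b2 were lost in several alternatives, Sult1c3 without any 1 of replicates 1, 2, 5, 7, 8, 9, 11 and 12 and Cyp2b2 without any 1 of 1, 2, 4, 7, 8 and 9.

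Scd, the desaturase that makes monounsaturated fatty acids, was taken as a further regressor after its values had been seen. It was lowest in replicates 10 and 11 (10.06 and 10.37), the animals lowest in Sds, and highest in 4, 9 and 7, from 12.27 in the last to 12.55 in the first. Pfkfb1 and Ethe1, a mitochondrial sulfur dioxygenase, rose with it (0.011% of genes). Only 1 gene passed without any 1 of replicates 2, 3, 5, 7, 8, 9 and 12, 4 passed without replicate 1, and 8 at a mean log2 minimum of 7. For Scd and Pfkfb1 r was 0.93 (permutation p = 6e-05, adjusted 0.00176; rho 0.91, p = 0.00014, adjusted 0.00874; limma adjusted p = 0.00242), 0.94 without replicates 1 and 4, and 0.83 without replicates 10 and 11. No gene passed limma without replicates 10 and 11 (768 at an unadjusted p below 0.05). Me1, malic enzyme, which supplies NADPH for lipid synthesis, ran from 7.76 to 8.48 with its 2 lowest values in the same replicates 10 and 11, and its limma adjusted p was 0.103. Elovl6, a fatty acid elongase, read 8.77 in replicate 10 and did not follow Scd over all 12 arrays (r = 0.16, limma adjusted p = 0.887). Without replicates 10 and 11 its r with Scd was 0.71. Acly likewise had an r of 0.33 over 12 arrays and 0.74 without replicates 10 and 11.

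The 19 genes of cholesterol synthesis and uptake, all with a mean of 6 or more, had a median pairwise r of 0.57 over 12 arrays and 0.61 over 10, beside 0.04 and 0.03 over all pairs of the 7069 genes. Their median r with Sds was 0.09 over 12 arrays and -0.46 over 10, and none passed limma. Idi1, Sqle, Lss and Msmo1, which act in the mevalonate and sterol pathway, were all highest in replicate 10 (9.26, 9.55, 9.58 and 11.68) and lowest in replicate 7 (6.92, 7.64, 7.49 and 10.07). Replicate 10 was thus at the top of the cholesterol genes and at the bottom of Scd. Other lists with a high median pairwise r were T and NK cell markers at 0.61 (only 3 genes of mean 6 or more), macrophage markers at 0.61, immediate early genes at 0.50, histocompatibility genes at 0.50, glucose uptake, glycolysis and fructose use at 0.49, endoplasmic reticulum chaperones at 0.48 and cytosolic chaperones at 0.41. Plasma protein genes, at 0.13, and the 17 listed respiratory chain genes, at 0.08, lay closer to the value over all pairs. That list does not speak for the whole chain. A different measure, the median r with Rpl36, described below, was 0.17 for the 17 listed genes. By wider family it was 0.62 for complex I, 0.80 for Uqcr, 0.61 for complex IV and 0.38 for ATP synthase genes. Over all genes of mean 6 or more it was 0.08. This measure cannot be set against the pairwise r. By median pairwise r, bile acid synthesis, at 0.19, and gluconeogenesis, at 0.28 over 12 arrays and 0.07 over 10, lay between. Cyp7a1, the rate-limiting enzyme of bile acid synthesis, ran from 10.32 to 11.83 and was highest in replicates 1 and 4. Igfbp1, an insulin-repressed binding protein, ran from 7.49 in replicate 12 to 9.71 in replicate 9.

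Of the 8 genes used as regressors, Rpl36 had the most companions, among them genes for mitochondrial and ribosomal proteins. Rpl36, a ribosomal protein gene chosen as a regressor after its values were seen, read 8.42, 8.61 and 8.86 in replicates 8, 10 and 6, 9.53 in replicate 3, and 9.93 to 10.59 in the other 8. With it, 507 genes rose (2.79%) and 162 fell (0.892%), 669 in all (3.68%). Median centring of the arrays moved this split to 586 and 96. The count was 432 without replicates 1 and 4, 416 without replicate 6, 445 without replicate 8, 374 without replicate 10 and 160 without replicates 8 and 10, which hold the lowest values.

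Mrps24, a protein of the mitochondrial ribosome, had its 3 lowest values, 8.48, 8.57 and 8.92, in the same replicates 8, 10 and 6. Its r with Rpl36 was 0.99 (permutation p = 1e-05, the smallest possible, adjusted 0.000537; rho 0.97, p = 1e-05, adjusted 0.00322; limma adjusted p = 1.18e-05), and 0.97 without replicates 8 and 10. The smallest limma adjusted p, 1.37e-07, belonged to Rpl36l2 (r = 0.99) and Rpl36l6 (r = 0.98). Their symbols mark them as related to Rpl36, so shared signal between probe sets is possible and was not tested. Trappc1 also rose, at a limma adjusted p of 1.18e-05. Uqcr11 and Uqcrq, small subunits of complex III, and Tomm7, of the mitochondrial import channel, rose with Rpl36 at limma adjusted p of 1.18e-05, 1.37e-05 and 2.60e-05. Tsn, translin, ran the other way, from 7.85 in replicate 9 to 8.75 in replicate 10 (r = -0.97, permutation p = 2e-05, adjusted 0.000859; rho -0.88, p = 0.00031, adjusted 0.0111; limma adjusted p = 0.000324).

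By family, among genes with a mean of 6 or more, 12 of 32 complex I genes (37.5%), 5 of 13 complex IV genes (38.5%), 3 of 6 complex III genes named Uqcr (50.0%), 14 of 54 mitochondrial ribosomal proteins (25.9%), 3 of 12 ATP synthase genes and 8 of 40 cytosolic ribosomal proteins (20.0%) rose with Rpl36, beside 6.07% of all genes at that level. These families were chosen after the result was seen. Of the 17 genes of the respiratory chain list, Cox6c rose, Ndufs1 of complex I fell and the others did not pass. Ttr, a plasma protein among the brightest signals, was also lowest in replicates 10, 8 and 6, at 12.74, 12.95 and 13.06. RNA quality was not tested.

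The first principal component of the 7069 genes, holding 30.7% of their variance, separated the same animals. Its scores were lowest in replicates 10, 8 and 6 (-0.49, -0.43 and -0.35) and highest in replicate 4 (0.40), and its leading genes were Ugt2b, Ces2e, Mt1f, Rpl36l6, Sult1c3 and Sds on one side and Akr1c2, Akr1c1, Casp12, Acsm2 and Bmal1 on the other. The third component, with 10.4%, set replicates 4 and 1 (-0.62 and -0.36) and also replicate 8 (-0.34) against the rest, with Hsd17b2, Sds, Dbp, Nr1d1 and Upp2 opposite Bmal1.

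**Figure D5:**
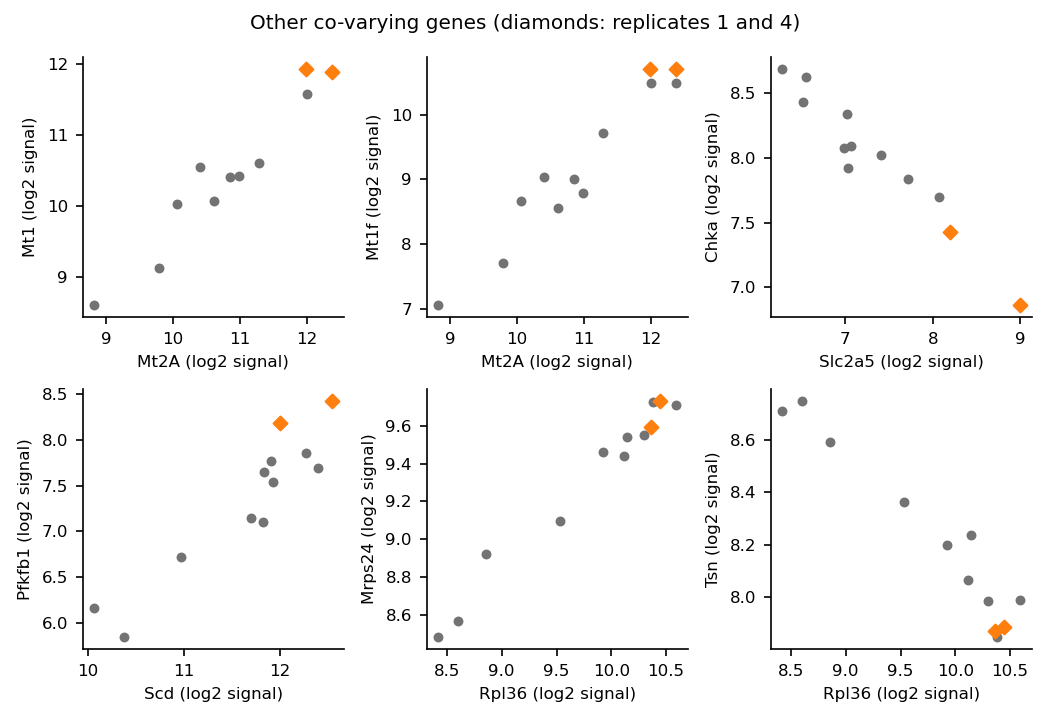
Log2 signals of 6 pairs of genes, 1 point per vehicle liver, with replicates 1 and 4 as orange diamonds. Mt1 and Mt1f rise with Mt2A, Chka falls as Slc2a5 rises, Pfkfb1 rises with Scd, and Mrps24 rises and Tsn falls as Rpl36 rises, in each case along the other 10 animals as well.

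Dcn, decorin of the collagen matrix, read 8.31, 8.30 and 7.78 in replicates 3, 9 and 11 and 5.77 to 7.25 in the rest, and as a regressor chosen after its values were seen it called 0 of 18165 genes (0%) in limma, with 965 at an unadjusted p below 0.05 and 0 to 6 calls over the alternatives. Lum, a related proteoglycan, was also highest in replicates 9 and 3 (5.75 and 5.13), and Aspn, asporin, in 9, 3 and 11 (7.65, 6.84 and 6.73). Both had a limma adjusted p of 0.0523. Lum and Aspn were picked after their values were seen, and the stellate cell and fibroblast list had a median pairwise r of 0.01, no higher than the 0.04 over all pairs. The mean of the 10 stellate cell and fibroblast markers, Dcn among them, ran from 6.81 to 7.29. Col3a1, a fibrillar collagen gene of that list, was unrelated to Dcn (r = -0.01, permutation p = 0.989, rho 0.09, permutation p = 0.781). In contrast, Des (r = 0.88, permutation p = 0.0001, adjusted 0.00239) and Col1a1 (r = 0.84, permutation p = 0.00051, adjusted 0.00684), also of the list, rose with Dcn. Neither passed limma (adjusted p = 0.203 and 0.860). The other list members were not tested as pairs with Dcn. Of macrophage markers, C1qb (8.39 to 10.21) and Vsig4 (7.79 to 9.69) varied most and were lowest in replicate 8 and highest in replicate 1, while Clec4f, the defining Kupffer cell lectin, stayed between 7.72 and 8.29.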

How the data were processed

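Liver RNA was hybridised to Affymetrix arrays, 1 per animal. The authors deposited 1 table of log2 values made with RMA (background correction, normalisation and summary of probes), per the submitters' processing notes; its software version is not given in the sources used here, nor is the set of arrays normalised together. The values span 0.67 to 13.77, and the number of arrays limits precision.

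Of 36685 probe sets, 18511 have 1 gene symbol in the platform annotation, 575 several and 17599 none; 18394 of the named sets matched RefSeq (GRCr8) by Entrez number and 0 symbols changed. The brightest probe set stood for each of 291 genes with several. Spread was the SD, with a mean log2 minimum of 6 for variable and 7 for steady genes. Co-variation was tested with limma 3.58.1 (lmFit, eBayes) with a seed gene as regressor over 18165 genes, Benjamini-Hochberg, threshold 0.05. Named pairs, 644 in all, were tested by Pearson r and Spearman rho with 100000 permutations, two-sided, adjusted over the pairs. They joined Sds with the list genes, seeds with genes that passed limma, and some genes chosen by hand. Adjustment over the pairs therefore does not cover the choice of genes from all 18165. No treated array entered. The p-values measure spread between arrays labelled as separate animals.

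Genes named are the 20 highest signals, 25 largest and 15 smallest SDs, per list the 4 members of largest SD and the 4 of largest absolute correlation with Sds, per seed the 10 strongest positive and 5 negative genes that passed, the 10 widest gaps and a few preset liver genes; loci without names, small RNAs and olfactory receptors were left out of ranks. Seeds were Sds and the 4 most variable metabolic genes of other lists. Scd, Rpl36 and Dcn were added as seeds, and other genes named outside the rule (among them Akr1c14, Ccl7, Ccl11, Cxcl1, Lum, Aspn, Me1 and RGD1309362) were chosen, after values were seen, as were the promoter motifs. The members and the 46 gene lists were chosen with earlier results of these data known. On data simulated for Sds over 18165 genes, the fit recovered 22.7% of 66 genes made with r = 0.8, 61.2% of 67 at 0.9 and 80.6% of 67 at 0.95, with 6 false calls. The simulated noise was independent between genes, whereas measured genes share variation, so these figures may not hold for the Sds calls.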

Additional observations from a re-analysis of the deposited data

How the results depend on the processing

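The 186 genes with an SD of 0.5 or more became 171 to 200 when 1 array was left out. Ranked by the scaled median absolute deviation, 15 of the 25 most variable genes remained, and Sds, Dbp, Bmal1, Hsd17b2, Upp2, Akr1c1, Akr1c12, Ccl2, Cpa1 and Rpl36l6 left. The 38 genes co-varying with Sds became 59 at a mean log2 minimum of 7, and 0 by rank, with Dbp as a covariate and without replicates 1 and 4, its 2 farthest arrays, with 0 to 40 when 1 array was left out. The 1 gene of Sult1c3 became 0 at the minimum of 7, by rank, with either covariate (Dbp or mean correlation with other arrays), without its 2 farthest arrays and without replicates 1 and 4, with 0 to 2 leaving out 1 array. The 1 gene of Cyp2b2 became 2 under quantile or cyclic loess normalisation, a minimum of 5, an intensity trend or the mean-correlation covariate, and 0 at a minimum of 7, by rank, with Dbp, or without replicates 1 and 4, its farthest arrays, with 0 to 2 leaving out 1. The 1 gene of Slc2a5 became 0 with Dbp as a covariate and without replicates 1 and 4, also its farthest arrays, with 0 to 2 leaving out 1. The 3 genes of Mt2A became 6 at the minimum of 7, with 2 to 5 leaving out 1. Without replicates 1 and 4 the r with Sds turned to 0.34 for Bmal1, 0.0142 for RGD1309362 and -0.223 for Bhlhe41. With Dbp as a covariate the partial r of Sds with RGD1309362 was 0.123 and that of Sds with Bhlhe41 was -0.156. The cause was not tested. The number of arrays limits all of these. No paired analysis was possible because there is 1 group, with no replicate numbers shared across groups.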
